A study of Mus musculus with 9 samples.

Results

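The comparison of lipopolysaccharide (LPS) with no treatment in BV2 cells is described here gene by gene, with most room given to the genes that fell. Its members are all genes listed at 1 TPM or more in at least 3 of 9 RNA-seq libraries, which kept 11260 of the 55906 genes in the table. TPM, the unit of the table, expresses a gene's transcript level per length as a share of its library, so all libraries have the same sum. The gene just inside that limit was Haao, whose third-highest library was listed at 1 TPM, and the gene just outside was Slc7a7, at 0.99 TPM.

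BV2 is an immortalized line of mouse microglia, the resident macrophages of the brain, and 1 line stands for the cell type throughout. The libraries fall into 3 groups of 3, all from wildtype BV2 cells: Control, labelled with no treatment; LPS; and LPS+Pilo, cells given LPS together with an agent the labels call Pilo. Neither dose nor duration is given in the sources used here. The labels speak of biological replicates without naming separate cultures; the p-values therefore measure how far these libraries spread. The LPS+Pilo libraries entered the fit to help estimate that spread, and their values are given only beside those of the other groups.

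LPS is a glycolipid of the outer membrane of Gram-negative bacteria. Macrophages and microglia sense it through CD14 and the TLR4 and MD-2 receptor complex, which drives NF-kB, AP-1 and interferon regulatory factors into the nucleus and switches on genes for cytokines, chemokines and antimicrobial proteins. Repression is the less described side of the response: activated macrophages are known to turn down genes of the resting state, among them genes of lipid handling, of lysosomal upkeep and of receptors that place a cell in its tissue.

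Between 10726 and 11123 genes reached 1 TPM in each library. Of 17 microglia and macrophage markers, 12 had a mean of at least 1 TPM over the 9 libraries, among them Csf1r (58.3 TPM on average in Control), Cd68 (1179 TPM) and Spi1 (275 TPM). The markers that set brain microglia apart from other macrophages were scarce: P2ry12 was listed at no more than 0.4 TPM in any library and Sall1 at no more than 0.01 TPM. The summed level of the 17 markers ran from 3389 to 3731 TPM in Control and from 2699 to 2824 TPM in LPS. The markers did not move together: of 14 tested, 4 were called lower and 1 higher. In these bulk libraries fewer cells of a kind and less RNA per cell cannot be told apart. The lists for astrocytes, fibroblasts and mural cells, T and B lymphocytes, neutrophils and epithelial cells had no marker with a mean of 1 TPM. The T and B lymphocyte list summed to at most 3.1 TPM, in 1 Control library. The neutrophil list summed to between 0.13 and 0.28 TPM in Control and between 0.79 and 0.85 TPM in LPS, with 3 of its 5 markers at 0, and its part in the results was not tested. The endothelial list reached 1 TPM through Flt1 and Vwf and the oligodendrocyte list through 1 gene. The neuronal list reached that level through Tubb3 alone (164, 367 and 277 TPM in Control and 318, 306 and 403 TPM in LPS, overlapping), and 6 of its 8 markers were listed at 0 in all Control and LPS libraries.

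Of the 11260 genes, 874 (7.76%) differed between LPS and Control at an adjusted p under 0.05 (limma on log2(TPM + 1), Benjamini-Hochberg over all genes tested). The induced side held 464 genes (4.12% of those tested) and the repressed side 410 (3.64%). The sides were close in number and unlike in size. Log2 differences of 1 or more were reached by 168 induced genes (1.49%) and by 71 repressed genes (0.631%), and differences of 2 or more by 45 and 5. Among the repressed genes 225 lay between 0.5 and 1 and 114 below 0.5, with a median of -0.65 against 0.85 on the induced side. The median over all genes tested was 0.07. Before adjustment 1176 genes were lower and 1384 higher at p under 0.05 (limma), the background for such counts in the lists below. In TPM, 119 repressed genes averaged less in LPS than 50% of their Control mean. No Control library overlapped an LPS library in 873 of the 874 genes, the exception being Ggta1, and 24.2% of all genes tested, called or not, showed no overlap.

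**Figure D1:**
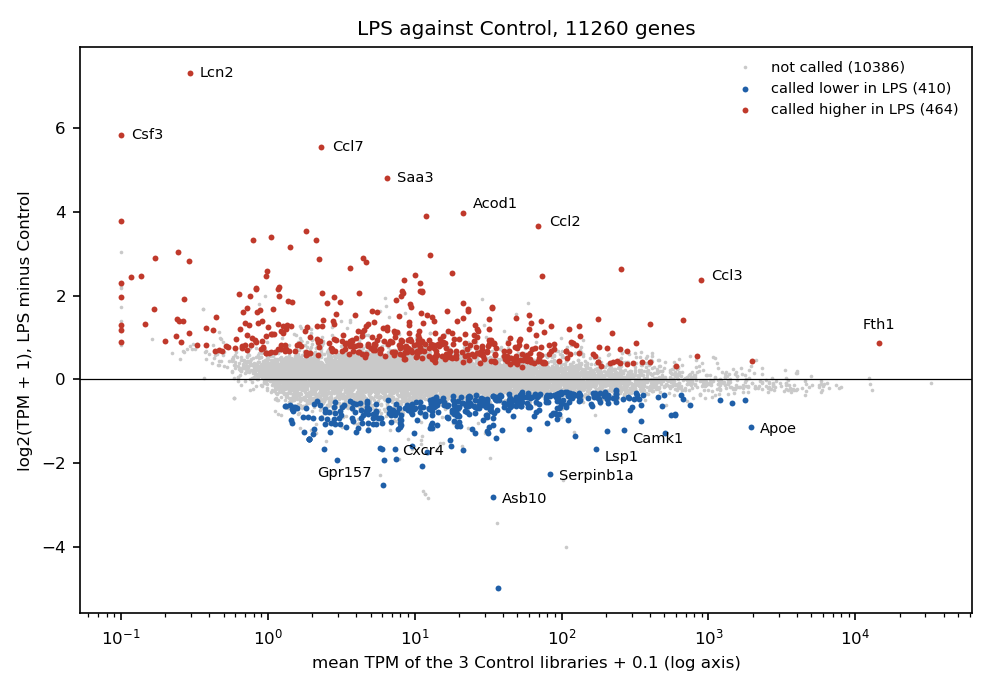
Each point is 1 of the 11260 genes tested, placed by its mean TPM in the 3 Control libraries (log axis, 0.1 added) and by the fitted log2(TPM + 1) difference, LPS minus Control. Red points are the 464 genes called higher and blue points the 410 called lower; the red points reach 7.32 (Lcn2) while most blue points lie between 0 and -1.

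Starting level set the sides apart as well. The repressed genes had a median Control mean of 25.8 TPM, the induced genes 9.34 TPM and all genes tested 11.5 TPM. Of the 447 genes under 1 TPM in Control, 75 were called higher (16.8%) and 0 lower, where the filter leaves no room for a decrease. Among the 1393 genes at 100 TPM or more, 77 (5.53%) were called lower and 39 (2.80%) higher. Log2(TPM + 1) understates changes of genes at low levels, so sizes below 5 TPM are compressed.

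The number of calls rested in part on single libraries. Leaving out Control replicate 3 left 247 genes higher and 167 lower, LPS replicate 2 242 and 224, LPS replicate 1 264 and 243, and Control replicate 2 295 and 257. Of the called genes 53.1% were higher as deposited, 40.5% after quantile normalization (614 higher and 902 lower), 67.2% when Control replicate 1 was left out (671 and 327) and 67.5% when LPS replicate 3 was (688 and 332). Those 3 settings moved the median of all genes from 0.07 to -0.01, 0.13 and 0.14. Of the repressed calls 325 were tested in all 21 alternatives, where 126 kept the call in each, and of the induced calls 368 were, where 179 did. Over whichever of the 21 tested a gene, 153 repressed and 209 induced genes kept the call throughout. The genes named in the following paragraphs are drawn mainly from these, and most others are given with the setting or value at which they lost the call. The filter on low values bears on some of them. Among the repressed genes, 37 reached 1 TPM in fewer than 3 of the 6 LPS and LPS+Pilo libraries and so passed through Control, where they are high; 58 induced genes had no Control library at 1 TPM and passed through the treated libraries. Their values describe them, and they lend no weight to a count. Of the genes named, Gpr157, S1pr1, Itgb4, Abcd2 and Fcrls were at 1 TPM in Control libraries alone and were not tested when a Control library was left out. On the induced side Lcn2, Cxcl2, Nos2, Slc39a4, Casp4, Ptgs2, Il6, Il1b, Calcrl and Pilrb2 were among those with no Control library at 1 TPM.

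Cell-surface receptors that guide leukocytes were among the largest decreases. Gpr157, a G protein-coupled receptor with few known roles in myeloid cells, was listed at 6.05, 6.21 and 5.88 TPM in Control and at 0.87, 0.95 and 0.73 TPM after LPS. The fitted decrease was 1.93 ± 0.13 (log2, SE), for a gene that passed the filter through Control alone. Cxcr4, the receptor of the chemokine CXCL12, stood at 9.44, 6.5 and 6.21 TPM in Control and at 1.54, 0.93 and 1.18 TPM in LPS, a decrease of 1.91 ± 0.19 (limma, Benjamini-Hochberg adjusted p = 3.48e-04). Gpr183, which binds oxysterols and positions immune cells in tissue, went from 12.6, 11.8 and 11.6 TPM to 2.78, 3.08 and 2.79 TPM. Its decrease was 1.74 ± 0.16. The groups lay far apart for all 3 genes, and for Cxcr4 the libraries of replicate 1 were the highest of both groups. S1pr1, a receptor for sphingosine 1-phosphate that governs the exit of leukocytes from tissue, was expressed at a lower level and fell from 3.23, 2.26 and 2.34 TPM to 0.93, 0.97 and 0.41 TPM, by 1.03 ± 0.18; it too passed the filter through Control alone.

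Of 34 immune G protein-coupled receptors tested, 6 fell (17.6%, against 3.64% of all genes) and 8 rose (23.5%, against 4.12%). Their median difference was -0.01 against 0.07 over all genes. The increases were spread over receptors for metabolites, complement, peptides and chemokines. Gpr84, which senses medium-chain fatty acids, rose from 27.9, 23.9 and 28.2 TPM in Control to 58.5, 65.1 and 63.7 TPM in LPS. C3ar1, the receptor of complement C3a, rose by 1.16 ± 0.17 and Hcar2, a receptor for ketone bodies and niacin, by 1.11 ± 0.13. Calcrl, which binds calcitonin gene-related peptide and adrenomedullin with a partner protein, rose from 0.277 to 2.04 TPM, and the chemokine receptor Cxcr3 from 0.617 to 2.37 TPM. The other called decreases, S1pr2 and Lpar5, were smaller at 0.69 and 0.63. S1pr2 lost the call without Control replicate 3 (adjusted p up to 0.0551) and Lpar5 without either of Control replicates 1 and 3, or any 1 LPS library, or any 1 LPS+Pilo library (adjusted p up to 0.148). Without Control replicate 3 the number of receptors called lower was 2, Gpr157 and S1pr1 not being tested there, and without LPS replicate 3 the number called higher was 12. Of the 8 increases 3 had no Control library at 1 TPM.

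**Figure D2:**
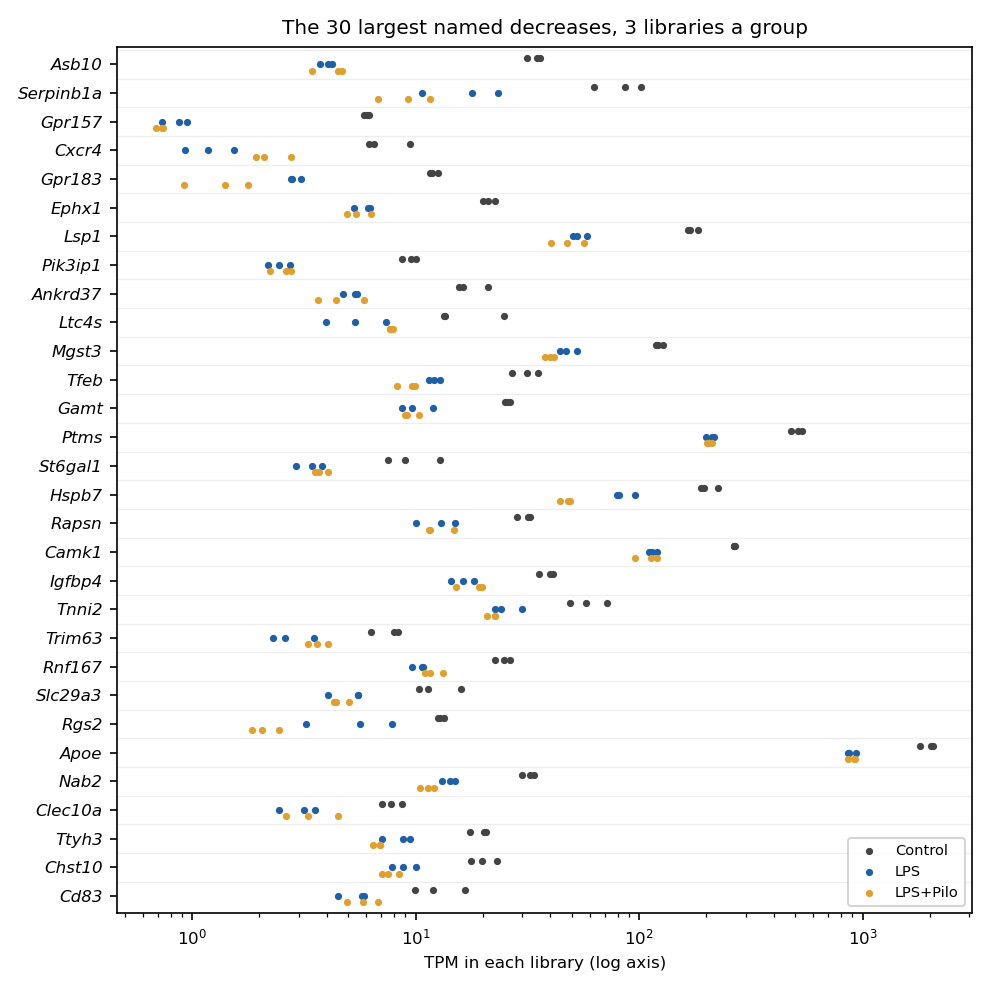
TPM of the 30 largest decreases in each library (log axis), with 3 points a group for Control, LPS and LPS+Pilo, ordered by size of the decrease from Asb10 at the top. No LPS point reaches a Control point in any row, as the rule that chose these genes required.

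Promoter sequences of RefSeq (build GRCm38.p6) were matched by symbol for 8148 of the tested genes, 331 called higher and 321 called lower, and the 250 bases before the first listed start were searched on both strands for short motifs. A match is a description of the letters and not a bound site. The NF-kB site, a degenerate motif of 10 bases that reads almost the same on both strands, was present in 9.37% of induced, 3.12% of repressed and 4.23% of all promoters searched. The AP-1 letters TGANTCA were present in 8.16%, 3.74% and 4.03%, and the interferon-type core GAAANNGAA in 11.8%, 5.92% and 6.21%. The PU.1 core GAGGAAGT was found in 4.53% of induced, 1.25% of repressed and 2.68% of all promoters. Letters of the GC box, GGGCGG, which Sp factors bind, were in 47.7% of induced and 58.9% of repressed promoters against 60.9% of all promoters, and the TATA letters TATAAA in 10.3%, 6.54% and 5.83%. These shares differed more between induced and all promoters than between repressed and all promoters for the NF-kB, AP-1, interferon-type, TATA and GC box letters. The CLEAR-type E-box CACGTG, the kind that TFEB binds, was in 8.72% of repressed and 8.74% of all promoters.

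The windows of 5 genes are shown because they belong to genes at the ends of the response. Capitals mark the NF-kB site in Cxcl2 (chr5:90903649-90903898, plus strand), the C/EBP motif TTGCNNAA in Saa3 (chr7:46715677-46715926, minus strand) and Lcn2 (chr2:32387740-32387989, minus strand), and GC boxes in the repressed genes Gpr157 (chr4:150087253-150087502, plus strand) and Cxcr4 (chr1:128592300-128592549, minus strand). All are written 5′ to 3′ along the gene, ending at the base before the start, and a motif on the opposite strand appears as its reverse complement (CCGCCC for the GC box).
Cxcl2: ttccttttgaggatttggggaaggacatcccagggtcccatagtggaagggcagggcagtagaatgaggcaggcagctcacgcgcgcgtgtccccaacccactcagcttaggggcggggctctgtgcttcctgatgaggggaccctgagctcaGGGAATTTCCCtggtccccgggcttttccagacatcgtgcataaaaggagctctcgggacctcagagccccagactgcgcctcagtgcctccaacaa
Saa3: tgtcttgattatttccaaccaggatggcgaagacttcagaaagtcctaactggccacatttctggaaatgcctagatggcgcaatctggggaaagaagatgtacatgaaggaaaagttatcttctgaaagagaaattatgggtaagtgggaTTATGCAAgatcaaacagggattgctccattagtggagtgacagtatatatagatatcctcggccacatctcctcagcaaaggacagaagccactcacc
Lcn2: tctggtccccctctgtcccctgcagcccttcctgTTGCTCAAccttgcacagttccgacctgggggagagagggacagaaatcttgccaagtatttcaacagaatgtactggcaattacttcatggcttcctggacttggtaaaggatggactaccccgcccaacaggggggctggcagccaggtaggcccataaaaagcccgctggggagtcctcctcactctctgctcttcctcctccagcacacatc
Gpr157: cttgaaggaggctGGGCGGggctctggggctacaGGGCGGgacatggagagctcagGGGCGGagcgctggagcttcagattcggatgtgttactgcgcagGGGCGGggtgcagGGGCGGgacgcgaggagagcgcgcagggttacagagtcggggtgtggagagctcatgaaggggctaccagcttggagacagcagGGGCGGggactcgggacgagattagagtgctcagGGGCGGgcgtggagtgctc
Cxcr4: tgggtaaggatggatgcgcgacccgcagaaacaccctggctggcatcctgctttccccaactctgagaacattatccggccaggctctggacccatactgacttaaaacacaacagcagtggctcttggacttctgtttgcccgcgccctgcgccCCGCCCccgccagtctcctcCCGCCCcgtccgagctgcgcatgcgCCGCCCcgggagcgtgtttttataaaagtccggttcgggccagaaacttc
The Cxcl2 window holds overlapping matches on both strands, from -97 to -87 relative to the start. Gpr157 has 7 GC boxes in its 250 bases and Cxcr4 3, where TATA letters also lie near the start, and neither window holds the NF-kB motif. The C/EBP motif lies at -99 to -92 relative to the start in Saa3 and at -216 to -209 in Lcn2. It was present in 11.5% of induced, 9.66% of repressed and 7.11% of all promoters. Among the largest changes with a promoter, it was in 6 of 13 induced and 1 of 24 repressed windows. The 6 included the close relatives Pilra, Pilrb1 and Pilrb2, whose windows had the same count of every motif. The share of 6 in 13 therefore rests partly on related windows. In the same windows the NF-kB site was in 1 induced and 1 repressed, and the GC box in 9 induced and 12 repressed. Cxcl2 itself rose from 0.27, 0.05 and 0.11 TPM in Control to 15.5, 7.93 and 4.47 TPM in LPS, Saa3 from 6.16, 5.04 and 7.9 TPM to 229, 196 and 182 TPM, and Lcn2 from 0.21, 0.15 and 0.22 TPM to 256, 172 and 154 TPM.

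Some enzymes that detoxify small molecules fell. Ephx1, the microsomal epoxide hydrolase, was listed at 19.99, 21.1 and 22.6 TPM in Control and 6.22, 5.31 and 6.1 TPM in LPS, a decrease of 1.69 ± 0.13 (adjusted p = 5.48e-05). Mgst3, a membrane-bound glutathione transferase, fell from 127, 119 and 122 TPM to 52.8, 44.1 and 47 TPM, by 1.34 ± 0.09 (adjusted p = 2.45e-05). The Control libraries of both genes stayed within a narrow band, and the LPS libraries lay at less than 50% of it. The aldehyde reductase Akr7a5 fell by 0.61 ± 0.09 from 107 ± 8.78 TPM (mean ± SD, n = 3). Of 46 drug-metabolising enzymes tested, 5 fell (10.9%, against 3.64% of all genes) and 3 rose (6.52%, against 4.12%), with a median of -0.07. The 3 decreases given kept the call in each alternative, and the 3 increases (Akr1b8, Cyb5r3 and Aldh3b1) were lost without Control replicate 2. A further decrease, of Gstt3, was lost without any 1 Control library, or either of LPS replicates 2 and 3, or any 1 LPS+Pilo library (adjusted p up to 0.131).

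Of 15 genes for the synthesis of eicosanoids, signalling lipids made from arachidonic acid, 1 was called lower, 2 were called higher and 12 were not called. The shares were 6.67% lower and 13.3% higher, against 3.64% and 4.12% of all genes. Ltc4s, the enzyme that commits leukotriene A4 to leukotriene C4, stood at 24.7, 13.3 and 13.5 TPM in Control and at 7.36, 3.97 and 5.35 TPM in LPS, a decrease of 1.45 ± 0.25 (adjusted p = 0.00777). Its Control replicate 1 was well above the others and the groups still did not overlap. The increases were of 2 prostaglandin enzymes, of which 1, Ptgs2, had no Control library at 1 TPM. Ptgs2, the inducible cyclooxygenase, rose from 0.92, 0.58 and 0.73 TPM to 6.22, 5.46 and 2.22 TPM, and Ptges, which makes prostaglandin E2, from 0.65, 1.09 and 1.23 TPM to 6.08, 5.19 and 4.68 TPM.

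Signalling proteins inside the cell made up another share of the decreases. Camk1, a calcium- and calmodulin-dependent kinase, was uniform in Control at 266, 269 and 265 TPM and in LPS at 110.3, 119.6 and 114 TPM. Its decrease was 1.21 ± 0.09 (adjusted p = 5.37e-05). Rgs10, which shortens signalling by G proteins and is abundant in resting microglia, fell from 85.2, 77.5 and 76.8 TPM to 35.2, 39.97 and 40.5 TPM, by 1.03 ± 0.09. Its relative Rgs2 was listed at 12.6, 13.4 and 12.9 TPM in Control and at 3.23, 5.64 and 7.82 TPM in LPS, where the libraries spread widely. That call was lost without either of Control replicates 2 and 3, or LPS replicate 2 (adjusted p up to 0.0654). Arrb1, a beta-arrestin that uncouples receptors, fell by 0.83 ± 0.15, the proton channel Hvcn1 by 0.76 ± 0.14, and the inhibitory G protein subunit Gnai2 by 0.47 ± 0.08 from 338 ± 14.5 TPM. In the list of 85 G protein, calcium and phosphoinositide genes 9 fell (10.6%, against 3.64% of all genes) and 6 rose (7.06%, against 4.12%), with a median of 0.05. Without Control replicate 3 there were 5 decreases and 1 increase. That increase was the cAMP phosphodiesterase Pde4b, from 1.12 to 3.7 TPM.

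In PI3-kinase signalling the largest decrease was that of an inhibitor. Pik3ip1, a membrane protein that inhibits PI3-kinase, went from 9.57, 8.69 and 10.1 TPM in Control to 2.73, 2.44 and 2.19 TPM in LPS, a decrease of 1.60 ± 0.14 (adjusted p = 1.13e-04). Sesn1, a stress-induced inhibitor of mTORC1 and a FoxO and p53 target, fell from 7.79 ± 1.88 to 3.55 ± 0.725 TPM (mean ± SD, n = 3) and kept the call without each library. It lost the call when the 6 Control and LPS libraries were fitted alone. Sgk1, a kinase of the same pathway, rose by 1.60 ± 0.19. Over the 48 genes of the PI3-kinase, AKT and FoxO list 4 fell (8.33%, against 3.64% of all genes) and 2 rose (4.17%, close to the 4.12% of all genes), with a median of -0.06. The decreases were 2 without Control replicate 1 or Control replicate 3, where S1pr1 was not tested, and the increases 1 without Control replicate 3 or LPS replicate 2. Besides these and S1pr1 the called members were Pink1, lower by 0.67, and Il7r, higher by 0.89. Pink1 lost the call without either of Control replicates 1 and 3, or either of LPS replicates 2 and 3, or any 1 LPS+Pilo library (adjusted p up to 0.0998), and Il7r without Control replicate 3, or either of LPS replicates 1 and 2 (adjusted p up to 0.0751).

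Among genes of the actin skeleton, the largest change was a decrease. Lsp1, a leukocyte protein that binds F-actin, was listed at 183, 164 and 168 TPM in Control and at 58.4, 50.5 and 52.5 TPM in LPS. It fell by 1.66 ± 0.12 (adjusted p = 5.04e-05), a level of 31.3% of Control. Myo1f, a long-tailed myosin of leukocytes, fell by 0.92 ± 0.12. The other 9 called genes of the 86 tested rose, among them Vasp, which extends actin filaments, by 0.71 ± 0.09, and Hcls1, a haematopoietic cortactin relative, by 0.59 ± 0.09. Of the 86, 10.5% rose and 2.33% fell, against 4.12% and 3.64% of all genes. Without LPS replicate 2 the count of increases was 3 and without Control replicate 1 it was 17, while Lsp1 and Myo1f fell in each.

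Transcription factors that shape myeloid cells leaned downward: of 56 tested, 10 fell (17.9%, against 3.64% of all genes) and 2 rose (3.57%, against 4.12%). Their median was -0.08. Tfeb, the master regulator of lysosome and autophagy genes, was listed at 31.4, 27.1 and 35.3 TPM in Control and 12.8, 11.5 and 12.1 TPM in LPS, a decrease of 1.29 ± 0.13 (adjusted p = 2.97e-04). Lyl1, a basic helix-loop-helix factor of blood cells, was the most abundant of the 10 and fell from 289, 288 and 291 TPM to 224, 209.9 and 200 TPM, by 0.45 ± 0.08. Tfeb and Lyl1 kept the call in all 21 alternatives. Cebpa, a factor that commits cells to the myeloid lineage, fell by 0.82 ± 0.15 and lost the call without Control replicate 3 (adjusted p up to 0.0571). Bhlhe41 and Bhlhe40, paired repressors active in microglia and macrophages, averaged 11.7 and 18.3 TPM in Control and 6.09 and 9.94 TPM in LPS, with decreases of 0.83 and 0.82. Bhlhe41 lost the call without either of Control replicates 1 and 3, or any 1 LPS library, or any 1 LPS+Pilo library (adjusted p up to 0.106), and Bhlhe40 when the 6 Control and LPS libraries were fitted alone. The count of decreases went down to 3 without Control replicate 3, and that of increases to 1 without Control replicate 2. Spi1, which encodes PU.1 and is required for the macrophage lineage, stood at 275, 274 and 278 TPM in Control and 279, 269 and 277 TPM in LPS and was not called. The main increase was Cebpd, a C/EBP factor of the acute-phase response, from 11.7, 10.9 and 10.9 TPM to 59.5, 50.5 and 44.2 TPM, by 2.10 ± 0.12 (adjusted p = 9.62e-06).

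Some genes of the lysosome and of autophagy fell, by modest amounts. Of 77 lysosomal hydrolases and membrane proteins tested, 10 fell (13%, against 3.64% of all genes) and 4 rose (5.19%, against 4.12%), with a median of -0.05. Before adjustment 22 were lower and 13 higher at p under 0.05 (limma). After correction for transcript GC 17 were called lower and 10 higher. Slc29a3, a nucleoside transporter of the lysosomal membrane, was listed at 15.9, 10.4 and 11.3 TPM in Control and 5.51, 5.51 and 4.04 TPM in LPS, a decrease of 1.16 ± 0.18. Laptm5, a lysosomal membrane protein of blood cells, was the most abundant and fell from 623, 542 and 599 TPM to 351, 326 and 299 TPM, by 0.85 ± 0.09 (adjusted p = 3.83e-04). The protease Ctsf fell by 0.82 ± 0.13, and Naglu, a heparan sulphate-degrading enzyme, by 0.65 ± 0.10. These 4 kept the call in every alternative that tested them. The count of decreases ran down to 6 without LPS replicate 2, and that of increases was 2 without Control replicate 2 and 7 without Control replicate 1. On the induced side Slc15a3, a lysosomal transporter of peptides and bacterial muropeptides, rose from 61.5, 53.8 and 63.8 TPM to 208, 172 and 151 TPM, by 1.55 ± 0.12.

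The second lysosomal list held the proton pump, autophagy and TFEB factors. Among 71 genes tested (limma) it had 8 decreases (11.3%, against 3.64% of all genes) and 0 increases, although its median was 0.03. Without LPS replicate 3 it had 4 increases beside 8 decreases, and without Control replicate 1 3 beside 7. Scaling by the median of ratios gave 3 beside 9, as did correction for transcript GC, and quantile normalization 1 beside 12. Before adjustment, 13 of its genes were lower and 8 higher at p under 0.05. Next to Tfeb the largest decrease was of Atp6v0d2, a macrophage-type subunit of the proton pump, from 4.59, 3.82 and 3.71 TPM to 1.14, 1.55 and 1.11 TPM. Plekhm1 and Plekhm2, adaptors that move and fuse lysosomes, fell by 0.73 ± 0.10 and 0.67 ± 0.10, Tecpr1, which tethers autophagosomes to lysosomes, by 0.72 ± 0.11, and the autophagosome protein Map1lc3a by 0.62 ± 0.10. Flcn and Lamtor1, both part of nutrient sensing at the lysosome surface, were the remaining members, at 0.44 and 0.37 below Control (log2). Flcn lost the call without either of Control replicates 1 and 3, or any 1 LPS library, or any 1 LPS+Pilo library (adjusted p up to 0.134), and Lamtor1 without either of Control replicates 2 and 3, or either of LPS replicates 1 and 2 (adjusted p up to 0.0929).

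**Figure D3:**
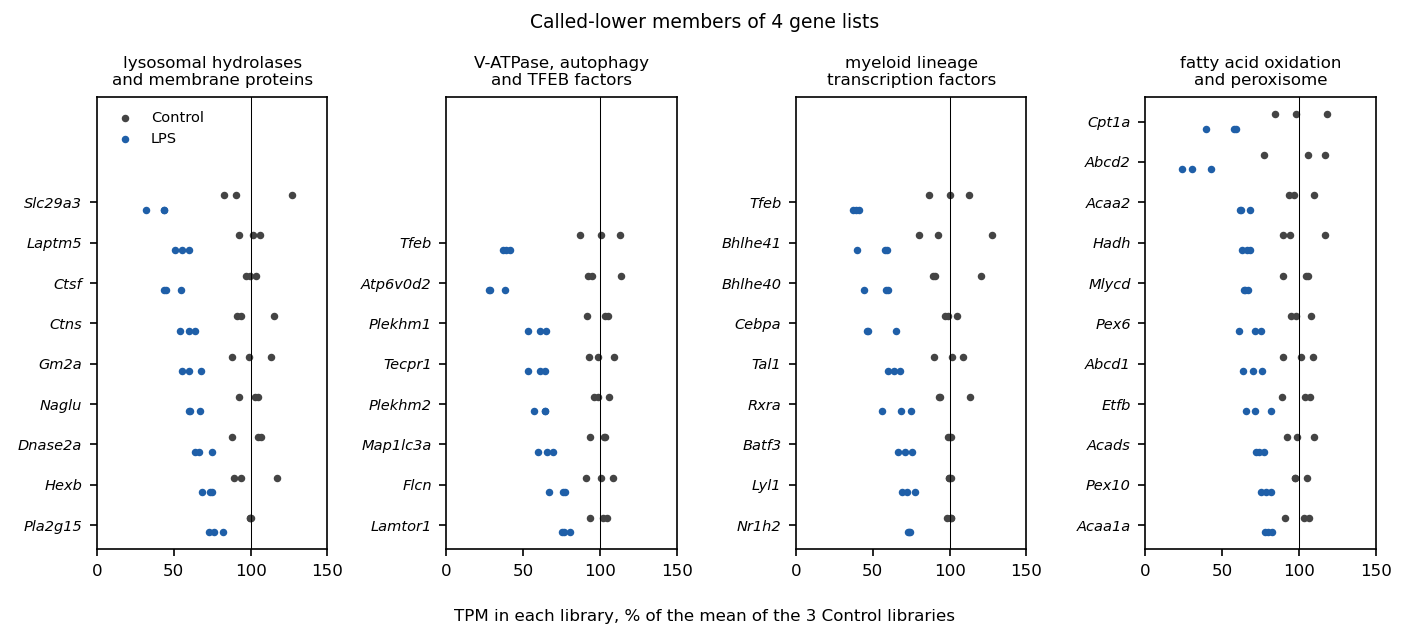
Called-lower genes from 4 gene lists (not every called member is drawn), with each library's TPM as a percentage of the gene's mean over the 3 Control libraries. The LPS points lie left of the Control points in every row, with Atp6v0d2 and Abcd2 farthest to the left.

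Genes that burn fatty acids gave 11 decreases and 1 increase among 59 tested, with a median of -0.12. The shares were 18.6% lower and 1.69% higher, against 3.64% and 4.12% of all genes. Acaa2, the mitochondrial thiolase that ends each round of beta-oxidation, was listed at 53.7, 45.6 and 47.4 TPM in Control and 30.2, 30.4 and 33.3 TPM in LPS, and fell by 0.63 ± 0.11 (adjusted p = 0.0077). It was the 1 decrease whose call held without each library: leaving out LPS replicate 2 left 1 decrease and fitting the 6 Control and LPS libraries alone also left 1. Cpt1a, the carnitine transferase that controls entry of fatty acids into mitochondria, was listed at 6.36, 4.52 and 5.26 TPM in Control and 3.1, 3.18 and 2.11 TPM in LPS, with an adjusted p of 0.0275 (limma, Benjamini-Hochberg). Its call was lost without either of Control replicates 1 and 3, or any 1 LPS library (adjusted p up to 0.0965). Hadh, the dehydrogenase of short chains, fell by 0.58 and Abcd2, a peroxisomal importer, by 0.71. Hadh lost the call without either of Control replicates 1 and 2, or any 1 LPS library (adjusted p up to 0.0771), and Abcd2 without any 1 LPS library, or LPS+Pilo replicate 1 (adjusted p up to 0.10). The increase was of Acot7, an acyl-CoA thioesterase, at 0.38, and without Control replicate 1 there were 2 increases. Acot7 kept the call without each library in turn but not in every alternative. Cholesterol genes gave 4 decreases (11.1%, against 3.64% of all genes) and 0 increases among 36 tested by limma (8 lower and 4 higher at p under 0.05 before adjustment). Apart from Apoe these decreases were of 0.43, 0.39 and 0.33 in the synthesis genes Dhcr7, Pmvk and Mvd, and without Control replicate 3 Apoe alone was called. Without Control replicate 1 there was also 1 increase, and after correction for transcript GC there was 1 beside 9 decreases. Pmvk kept its call in 5 of the 21 alternatives and Mvd in 11.

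Other metabolic genes fell one by one. Gamt, which makes creatine, was listed at 26.5, 25.2 and 25.7 TPM in Control and 8.71, 9.67 and 12 TPM in LPS, a decrease of 1.28 ± 0.13 (adjusted p = 3.53e-04). Eno3, an enolase best known from muscle, fell by 0.80 ± 0.09 from 90.7 ± 5.53 TPM, and Bckdha, a subunit of the branched-chain keto acid dehydrogenase, by 0.59 ± 0.09. Ankrd37, a hypoxia-inducible gene, fell from 21, 16.3 and 15.6 TPM to 5.33, 5.44 and 4.72 TPM, by 1.59 ± 0.17. Of 26 hypoxia-inducible genes 2 fell (7.69%, against 3.64% of all genes) and 3 rose (11.5%, against 4.12%). The 3 increases, among them the glucose transporter Slc2a1 (49.2 to 83.9 TPM), were all lost without LPS replicate 2. Without Control replicate 1 there were 6 increases. The other decrease was of Ndrg1, by 0.63, and it was lost without any 1 Control library, or LPS replicate 2 (adjusted p up to 0.0739). Hk3, the hexokinase of myeloid cells, rose by 0.63 ± 0.09. In the glycolysis and pentose phosphate list 4 of 37 genes fell (10.8%, against 3.64% of all genes) and 2 rose (5.41%, against 4.12%), with a median of 0.13. Without Control replicate 3 there was 1 decrease, and the increases were 1 without Control replicate 2 and 6 without Control replicate 1.

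Apoe, the lipid carrier of microglia and macrophages, lost more TPM than any other repressed gene. It was listed at 2020.1, 1801 and 2066 TPM in Control and at 863, 932 and 871 TPM in LPS, a decrease of 1.14 ± 0.08 (adjusted p = 3.35e-05) that left 45.3% of the Control mean. Next came Cst3, the secreted protease inhibitor cystatin C, from 1765 ± 78.8 to 1262 ± 65.3 TPM, and Tyrobp, the adaptor of Trem2, from 1192 ± 90.2 to 839 ± 35.6 TPM. Ptms, a small acidic nuclear protein, fell further in proportion, from 511, 476 and 537 TPM to 199.6, 217 and 211 TPM. Syngr1, a vesicle membrane protein, and Ptpn18, a tyrosine phosphatase, fell by 0.85 ± 0.09 and 0.61 ± 0.10. The Cst3 call was lost under scaling by the median of ratios, and the Tyrobp call after correction for transcript GC and length. The numbered gene model Gm28438, also among the 10 largest losses, lost the call without either of Control replicates 1 and 2, or either of LPS replicates 1 and 2, or LPS+Pilo replicate 2 (adjusted p up to 0.139).

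Summed over the 410 repressed genes, Control libraries held 33391, 32614 and 33259 TPM and LPS libraries 21881, 21538 and 21976 TPM. The 464 induced genes went from 36487, 30617 and 32923 TPM to 69995, 66305 and 59242 TPM. The calls fix the direction of both sums. The loss was spread out, with 25 genes making up its first 50% and Apoe 9.51% of it, while the gain was concentrated: 3 genes made up the first 50% and the ferritin heavy chain gene Fth1 alone 36.9%. Fth1 stood at 16856, 12797 and 14115 TPM in Control and 27938, 27432 and 23691 TPM in LPS, and lost the call under quantile normalization. In LPS+Pilo the repressed genes summed to 20730, 21373 and 22280 TPM and the induced genes to 63438, 60818 and 63890 TPM.

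Several of the 30 largest decreases are genes known best from other tissues. Asb10, an ankyrin-repeat protein of an E3 ubiquitin ligase, led the list at 31.5, 35 and 35.9 TPM in Control and 4.23, 3.73 and 4.07 TPM in LPS. Hspb7, a small heat shock protein of heart, was listed at 196, 224 and 189 TPM in Control and 79.7, 80.8 and 95.7 TPM in LPS, and at 47.9, 44.1 and 49 TPM in LPS+Pilo. Rapsn, which clusters acetylcholine receptors at the neuromuscular junction, fell from 30.9 to 12.7 TPM, the muscle troponin gene Tnni2 by 1.18 ± 0.15, and Trim63, the muscle ubiquitin ligase MuRF1, by 1.18 ± 0.17. The levels of these genes in Control, between 7.57 TPM for Trim63 and 203 TPM for Hspb7, were well above the filter. Serpinb1a, an inhibitor of neutrophil proteases, went from 62.5, 102 and 86.6 TPM to 10.6, 17.8 and 23.3 TPM.

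The rest of the 30 were of mixed kind. St6gal1, which caps glycoproteins with sialic acid, was listed at 12.8, 7.54 and 9.0 TPM in Control and 3.43, 3.81 and 2.92 TPM in LPS. Igfbp4, a secreted binder of insulin-like growth factors, fell from 39.9, 35.5 and 41.3 TPM to 16.3, 18.2 and 14.4 TPM. Nab2, a corepressor of EGR factors, fell by 1.13 ± 0.11, the ubiquitin ligase Rnf167 by 1.17 ± 0.11, the chloride channel gene Ttyh3 by 1.12 ± 0.13 and the sulphotransferase Chst10 by 1.10 ± 0.14. Clec10a, a galactose-binding lectin of macrophages and dendritic cells, fell by 1.13 ± 0.19. Cd83, a surface protein of activated antigen-presenting cells, fell from 16.6, 9.94 and 11.9 TPM to 5.85, 5.78 and 4.48 TPM, by 1.09 ± 0.20 (adjusted p = 0.00897), while the costimulatory receptor Cd40 rose from 2.53, 3.83 and 4.25 TPM to 27.1, 24.6 and 30.5 TPM.

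Genes of the homeostatic microglia list, 33 of which were tested, gave 11 decreases (33.3%, against 3.64% of all genes). There were 3 increases (9.09%, against 4.12%), and the median was -0.16. Trem2, a lipid-sensing receptor, was listed at 593, 591 and 589 TPM in Control and 304, 319.8 and 375 TPM in LPS, a decrease of 0.83 ± 0.12. C1qc, a chain of the first complement component, fell from 3.88, 3.58 and 4.23 TPM to 1.62, 0.74 and 0.89 TPM, while Fcrls, which passed the filter through Control alone, stood at 2.43, 1.55 and 1.37 TPM and 0.5, 0.39 and 0.52 TPM. The increases were of Itgam, Lpcat2 and Selplg, and the largest was that of Itgam, the alpha chain of complement receptor 3, from 14.2, 8.4 and 10.1 TPM to 42.5, 42.2 and 21.5 TPM. Selplg did not keep the call in every alternative that tested it. The count of decreases ran down to 7 without Control replicate 3. The microglia markers Tmem119 and Cx3cr1 overlapped between groups. Tmem119 stood at 2.73, 2.15 and 2.16 TPM in Control and 2.72, 3.05 and 3.05 TPM in LPS. Cx3cr1 stood at 4.57, 2.71 and 2.97 TPM and 2.63, 3.22 and 2.88 TPM. The disease-associated microglia list, which also holds Trem2, gave 7 decreases (18.9%) and 9 increases (24.3%) among 37 tested. Without Control replicate 2 that list had 5 decreases and 5 increases. Adhesion genes also divided: Itgb4 fell from 1.35 to 0.137 TPM and the tetraspanin Cd9 by 0.63 ± 0.09, and Itgb7 and Itga5 rose by 0.85 ± 0.08 and 0.83 ± 0.13. Of 52 integrins and adhesion molecules 5 fell (9.62%, against 3.64% of all genes) and 7 rose (13.5%, against 4.12%). Of the 5 decreases 1, Itgb4, passed the filter through Control alone. The decreases were 2 without Control replicate 2, and the increases 3 without Control replicate 3 and 13 without LPS replicate 3.

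**Figure D4:**
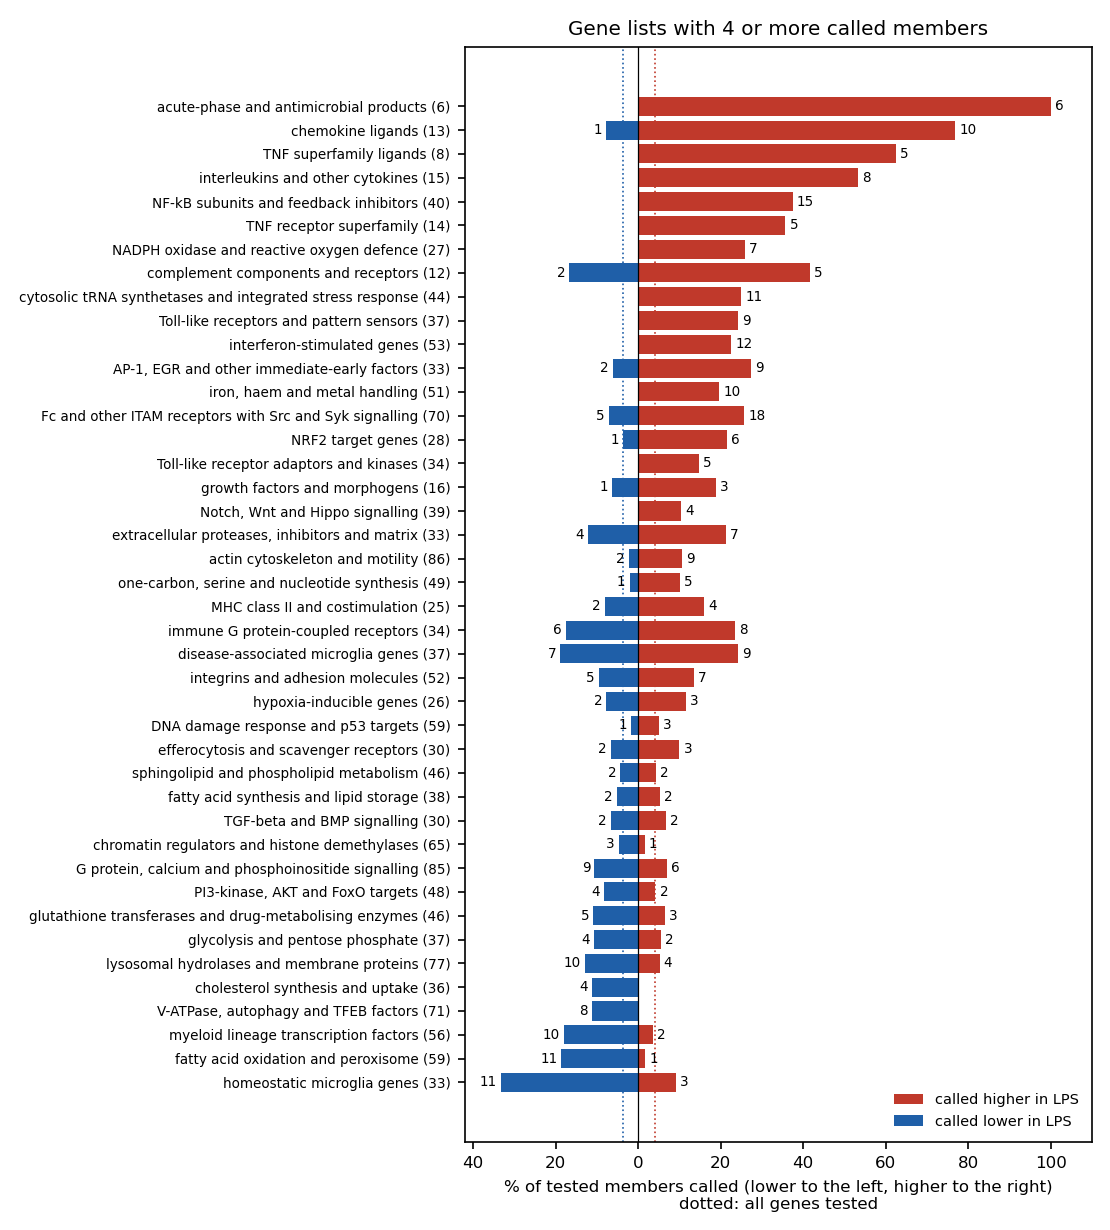
Percentage of tested members called higher (right, red) and lower (left, blue) in LPS for each list with 4 or more called members, with the number of genes tested in parentheses and the number called beside each bar. Dotted lines mark all genes tested, at 4.12% and 3.64%. The lists of secreted signals lie at the top with few or no decreases, and the homeostatic, fatty acid, transcription factor and lysosomal lists at the bottom.

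On the induced side, secreted signals rose with few exceptions. Of 13 chemokine ligands tested, 10 rose (76.9%, against 4.12% of all genes) and 1 fell (7.69%, against 3.64%). Of the 10 increases 1, Cxcl2, had no Control library at 1 TPM. Ccl5, which attracts T cells and monocytes, rose from 13.1, 7.46 and 9.26 TPM in Control to 75.5, 61.4 and 44.5 TPM in LPS, by 2.49 ± 0.21. Ccl9 rose by 1.49 ± 0.18 and Cxcl10, an interferon-inducible ligand of CXCR3, by 2.30 ± 0.24. Cxcl14, the 1 decrease, stood at 90.8, 94.6 and 90.7 TPM in Control and 65.8, 69.2 and 71.3 TPM in LPS and lost the call without either of Control replicates 2 and 3, or either of LPS replicates 1 and 2 (adjusted p up to 0.0828). The macrophage inflammatory proteins Ccl3 and Ccl4 had the highest levels, on average 892 and 254 TPM in Control and 4607 and 1584 TPM in LPS.

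Cytokine genes rose from very different starting points. Il1rn, the interleukin-1 receptor antagonist, was listed at 13.2, 14.6 and 9.94 TPM in Control and 137, 99.9 and 81.4 TPM in LPS. Ebi3, a chain shared by IL-27 and IL-35, rose from 8.26, 6.97 and 9.09 TPM to 38.7, 38.7 and 36.8 TPM, by 2.11 ± 0.11, and Osm, a relative of IL-6, by 1.05 ± 0.17. Il6 was listed at 0, 0.05 and 0 TPM in Control and 6.28, 5.89 and 2.37 TPM in LPS. Il1b stayed low, at 0.37, 0.04 and 0 TPM and 1.49, 1.35 and 1.08 TPM, and lost the call without either of Control replicates 2 and 3, or either of LPS replicates 1 and 2, or LPS+Pilo replicate 3 (adjusted p up to 0.138). Gdf15, a stress-induced cytokine, rose from 23.8, 18.1 and 21.7 TPM to 97.9, 77 and 61.9 TPM. Of 15 interleukin and other cytokine genes 8 rose (53.3%, against 4.12% of all genes) and 0 fell by limma, with 2 lower at an unadjusted p under 0.05. Of the 8, 4 had no Control library at 1 TPM. After quantile normalization, scaling by the median of ratios or correction for transcript GC, 7 were called higher and 2 lower. There were 5 increases without Control replicate 3 and 5 without LPS replicate 2, where 1 gene was called lower. Il10 and Il12b did not reach the filter and were listed at 0 in all Control and LPS libraries, and Il1a was listed at up to 0.03 TPM in Control and 0.31 to 1.34 TPM in LPS.

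NF-kB subunits and feedback inhibitors formed the next group: 15 of 40 rose (37.5%, against 4.12% of all genes) and 0 fell by limma (0 also at an unadjusted p under 0.05). Nfkbid, a nuclear inhibitor of NF-kB, was listed at 7.75, 7.99 and 9.28 TPM in Control and 49.1, 47.2 and 46.2 TPM in LPS, and Nfkbia, the classic cytoplasmic inhibitor, at 24.2, 19.9 and 24.9 TPM and 82, 72.6 and 64.1 TPM. Their increases were 2.38 ± 0.10 and 1.62 ± 0.13. Socs3, which blocks cytokine receptors, rose by 1.89 ± 0.16, Tnip1, which binds ubiquitin chains and A20, by 1.47 ± 0.11, and Zfp36, which destabilizes cytokine mRNA, by 1.15 ± 0.17. Of these 15, 9 held in every alternative that tested them, and 9 remained called without Control replicate 3. No Control library reached 1 TPM for 2 of the 15. Immediate-early factors gave 9 increases (27.3%, against 4.12% of all genes) and 2 decreases (6.06%, against 3.64%) among 33 tested. Ier3, a survival factor, rose from 96, 47.1 and 76.2 TPM to 539.8, 367 and 302 TPM and Fosl1, an AP-1 subunit, from 3.66, 3.51 and 5.11 TPM to 21.6, 20.3 and 18.6 TPM. Ier5l fell by 0.87 ± 0.12, and Nr4a1, a nuclear receptor of the early response, by 0.70, a call lost without either of Control replicates 2 and 3, or either of LPS replicates 1 and 3, or any 1 LPS+Pilo library (adjusted p up to 0.136).

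Myeloid receptors with tyrosine-based signalling and their adaptors rose more often than they fell, 18 against 5 of 70 tested. The shares were 25.7% higher and 7.14% lower, against 4.12% and 3.64% of all genes. Of the 18 increases 3 had no Control library at 1 TPM. The paired receptors Pilra, Pilrb1 and Pilrb2 stood at 1.72, 0.687 and 0.19 TPM in Control and at 31.1, 15.9 and 7.37 TPM in LPS, and because they are close relatives their reads may be split between them. Fyb, an adaptor that links receptors to integrins, rose from 11.9, 5.92 and 6.82 TPM to 36.4, 46.8 and 27.4 TPM, and Lat, an adaptor best known in T cells, from 2.71, 2.62 and 1.93 TPM to 12.3, 9.46 and 11.3 TPM. The Fc receptors moved apart: Fcgr2b, the inhibitory member, rose by 0.89 ± 0.14 and Fcgr3, an activating member, fell by 0.66 ± 0.10. Without LPS replicate 1 the list had 10 increases and without LPS replicate 3 22, and the 5 decreases did not change in number without any 1 library.

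Sensors of microbes gave 9 increases (24.3%, against 4.12% of all genes) and 0 decreases among 37 tested by limma. Before adjustment 3 were lower at p under 0.05. Quantile normalization gave 8 increases and 3 decreases, scaling by the median of ratios 9 and 3, and correction for transcript GC 9 and 5. Of the 9 increases as deposited 2 had no Control library at 1 TPM. Cd14, the co-receptor that hands LPS to TLR4, rose from 149, 114 and 131 TPM in Control to 393, 319 and 256 TPM in LPS. Clec4d, a C-type lectin that binds mycobacterial lipids, rose from 29.97, 38.4 and 32.8 TPM to 104, 120.2 and 108 TPM and its partner Clec4e by 0.93 ± 0.12. Casp4, which encodes caspase-11, the sensor of LPS inside the cell, was listed at 0.72, 0.65 and 0.89 TPM in Control and 3.68, 4.75 and 2.27 TPM in LPS. Further along the pathway Traf1 and Irak3, both known as brakes, rose by 2.05 ± 0.29 and 1.25 ± 0.21.

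Metal handling and oxygen chemistry rose in part: 10 of 51 iron, haem and metal genes rose and 0 fell (limma; 7 lower at an unadjusted p under 0.05; 1 called lower without Control replicate 2), and 7 of 27 oxidase and oxygen-defence genes rose (4 without Control replicate 3). The increases were 19.6% of the metal genes and 25.9% of the oxidase and oxygen-defence genes, against 4.12% of all genes. Of the metal genes 13 rose and 6 fell after quantile normalization, and 13 and 4 with scaling by the median of ratios. The counts were 12 and 4 after correction for transcript GC and 9 and 2 with the replicate block. Of the 10 metal increases as deposited 1, Slc39a4, had no Control library at 1 TPM. Slc39a4, a zinc importer, was listed at 0.77, 0.51 and 0.69 TPM in Control and 5.38, 6.54 and 4.96 TPM in LPS. Alas1, the first enzyme of haem synthesis, rose from 126, 99 and 110.1 TPM to 312, 239.7 and 227 TPM and the transferrin receptor Tfrc from 24.9, 19.3 and 21 TPM to 42, 59.98 and 40.5 TPM. Slc11a1, the phagosomal metal exporter NRAMP1, rose by 0.83 ± 0.11. The mitochondrial superoxide dismutase Sod2 and glutaredoxin Glrx rose by 0.86 ± 0.08 and 1.02 ± 0.10. Nos2, the inducible nitric oxide synthase, was listed at 0.11, 0.08 and 0.02 TPM in Control and 12.9, 5.86 and 4.32 TPM in LPS, and Odc1, the entry enzyme of polyamine synthesis, at 252, 189.9 and 217 TPM and 527, 517 and 389 TPM. Upp1, which salvages uridine, rose from 0.41, 1.2 and 2.49 TPM to 9.16, 6.3 and 5.86 TPM.

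Cytosolic tRNA synthetases and genes of the integrated stress response, in which ATF4 is translated when amino acids run short, made up 1 list of 44 genes, with 11 increases and 0 decreases (limma; 0 lower at an unadjusted p under 0.05). Of its 20 tRNA synthetases 2 rose (10%), and of the other 24 genes 9 (37.5%), against 4.12% of all genes. Slc7a11, the cystine importer, was listed at 1.79, 0.66 and 0.78 TPM in Control and 11.4, 9.48 and 4.71 TPM in LPS. Trib3 rose by 1.19 ± 0.21, Asns, the asparagine synthetase, by 0.67 ± 0.11 from 108 ± 12.5 TPM, and Atf5 by 0.81 ± 0.11. The count over the 44 ran from 6 without Control replicate 2 to 21 without Control replicate 1. Chaperones and sensors of the endoplasmic reticulum, 33 tested, gave 0 calls in either direction by limma, and before adjustment 3 were higher and 1 lower at p under 0.05. Without Control replicate 1 there was 1 increase, and after correction for transcript GC there were 2 increases and 1 decrease. These counts hold for the list alone: Erp29, a chaperone of the same compartment, is outside it and fell, as given in the closing section.

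Interferon-stimulated genes rose in part, 12 of 53 tested with 0 lower (limma; 1 lower at an unadjusted p under 0.05) and a median of 0.42. The increases were 22.6% of those tested, against 4.12% of all genes. Ifitm6 was listed at 12.9, 8.41 and 11.1 TPM in Control and 63.4, 50.8 and 37.7 TPM in LPS. Ifitm3, a membrane protein that blocks viral entry, rose from 497, 286 and 413 TPM to 1171, 982 and 819 TPM, and Bst2, which tethers budding virions, by 0.87 ± 0.15. Isg15, a ubiquitin-like protein, averaged 75.9 ± 21.9 TPM in Control and 164 ± 29.2 TPM in LPS and lost the call without LPS replicate 1 (adjusted p up to 0.0538). The count was 4 without LPS replicate 1 and 16 without LPS replicate 3. Ifnb1 itself did not reach the filter, at up to 0.28 TPM in Control and 0.1 to 0.66 TPM in LPS, and Cxcl9 and Ciita stayed at or below 0.04 TPM.

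Large housekeeping groups held 0 to 2 calls each. Of 73 nuclear genes of the respiratory chain and ATP synthase 1 was called, Ndufv3, lower by 0.38, a call lost without Control replicate 3, or LPS replicate 2 (adjusted p up to 0.0878). That is 1.37% called lower, against 3.64% of all genes. Before adjustment 15 of the 73 were lower and 0 higher at p under 0.05 (limma). Over all 11260 genes 1176 were lower and 1384 higher at that threshold, which is the background for the unadjusted counts in this paragraph. Of 70 genes of G2 and mitosis 2 were called (2.86% lower, near the share of all genes, and 0 higher). Cenpm was lower by 0.54 ± 0.09 and Ccnf by 0.39. The Ccnf call was lost without any 1 Control library, or any 1 LPS library, or either of LPS+Pilo replicates 2 and 3 (adjusted p up to 0.165). Before adjustment 10 of the 70 were lower and 0 higher at p under 0.05 (limma). After correction for transcript GC 9 were called lower and 0 higher. The 78 cytosolic ribosomal protein genes had 0 calls by limma, with a median of -0.15. Before adjustment 12 of them were lower and 0 higher at p under 0.05. The 79 mitochondrial ribosomal proteins and the 47 proteasome subunits also had 0 calls, and before adjustment 9 were lower and 4 higher in the first group and 0 lower and 6 higher in the second.

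GC content of the transcript moved with the repressed calls. The longest GENCODE M21 transcript of a called-lower gene had a median GC of 55.3%, of a called-higher gene 50.6% and of a gene not called 49.7% (403, 446 and 9925 genes with a transcript model). The share of genes called lower rose over 10 equal classes of GC content from 0.557% to 10.2%, and the share called higher stayed between 3.15% and 5.01%. The libraries differed along GC as well. The median deviation of the GC-richest 20% of genes minus that of the GC-poorest 20% was 0.313 in Control replicate 2, 0.250 in Control replicate 3 and -0.005 in Control replicate 1, and -0.096, -0.370 and -0.011 in LPS replicates 1, 2 and 3 (log2). After each library's trend on GC was removed, an alternative chosen after seeing the data, 350 of the 403 repressed genes with a transcript model (86.8%) and 405 of 446 induced genes (90.8%) were called in the same direction. All 849 kept their sign, and the median decrease went from -0.65 to -0.59. Control replicate 1 and LPS replicate 3 were almost equal in the GC measure, while the other Control libraries lay above them and the other LPS libraries below. What gave rise to the trend was not tested.

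**Figure D5:**
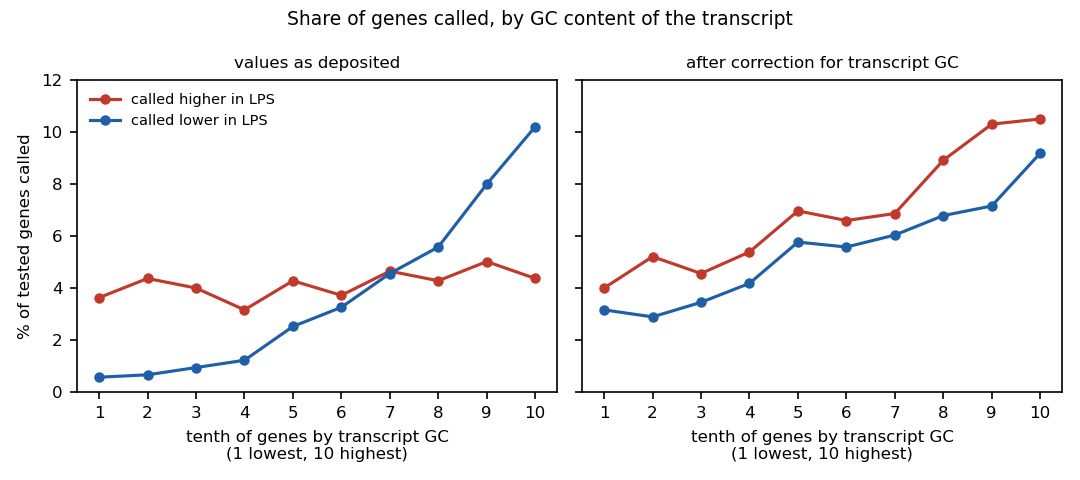
Percentage of tested genes called higher (red) and lower (blue) in LPS, in 10 equal classes of transcript GC content from the lowest (1) to the highest (10), with the values as deposited on the left and after the correction for transcript GC on the right. On the left the blue line climbs from 0.557% to 10.2% with the red line nearly level; on the right both climb, the blue from 3.15% to 9.18% and the red from 3.99% to 10.5%.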

How the data were processed

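RNA-seq of 9 BV2 libraries, 3 each for Control, LPS and LPS+Pilo, was analysed from 1 table of 55906 genes. The authors deposited its values as TPM, to 2 decimals. The build was GRCm39 and the tools STAR 2.7.1a, fastp 0.19.5 and DESeq2 1.24.0, per the submitters' processing notes; the tool that made the TPM values is not given in the sources used here. TPM hold no read counts, so depth is unknown, and no interval for counting error can be given; a rise of abundant genes lowers the values of all others. Groups and replicate numbers came from the labels.

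Genes at 1 TPM or more in at least 3 of the 9 libraries were tested on log2(TPM + 1), computed here from the deposited TPM, with limma 3.58.1 (R 4.3.3; trend on expression, 6 residual degrees of freedom) over all 9 libraries, with Benjamini-Hochberg adjustment and a threshold of 0.05. The script was tested on simulated data with 200 changed genes. Alternatives changed the pseudocount, filter, scaling, variance model, replicate block and libraries, and 2 corrections for transcript GC and length were added after seeing the data. Transcript GC and length came from GENCODE M21 and promoters from RefSeq GRCm38.p6, matched by gene; no coordinates were carried between builds.

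Members, gene lists and tests were chosen with earlier results of these data known. The text names the 30 largest decreases and 20 largest increases among called genes with an established symbol, 5 TPM or more in the higher group and no overlap between groups; up to 5 called members of each list in each direction; the 10 largest gains and losses of mean TPM; and lone called members of a family. Genes named outside this rule were chosen after their values were seen: markers, Lyl1, Nfkbia, Tnip1, Zfp36, Ccl5, Ccl9, Cxcl10, Il1b, Naglu, Map1lc3a, Flcn, Lamtor1, Gnai2, Lpar5, Hcls1, Fcgr2b, Bst2, Clec4e, Slc11a1, Asns and those in the closing section. Results of some genes are not reported here.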

Additional observations from a re-analysis of the deposited data

How the results depend on the processing

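The 874 calls (464 higher, 410 lower) became 486 (265 and 221) when the 6 Control and LPS libraries were fitted alone, 1516 (614 and 902) after quantile normalization, 1294 (637 and 657) with scaling by the median of ratios, 1329 (746 and 583) after the GC correction and 1592 (871 and 721) after the GC and length correction; the cause was not tested. Leaving out 1 library at a time gave 414 to 1020 calls, 242 to 688 higher and 167 to 338 lower, with the fewest calls without Control replicate 3 and the most without LPS replicate 3. Decreases of 1 or more (71) were 45 with a filter at 5 TPM, which tests fewer genes, and 50 to 71 without 1 library; increases of 1 or more (168) were 143 to 224. With pseudocounts of 0.1 and 0.5 TPM, no filter, no variance trend and a robust trend, total calls stayed between 720 and 884. With the replicate block there were 808 calls (459 and 349); same-numbered Control and LPS libraries had deviations correlated at 0.165, -0.225 and 0.158, so the numbers were taken as names only. Of 269 genes named by the rule, 152 kept the call in every alternative that tested them, and over 5871 such results 777 lost the call and 0 changed direction. TPM without counts leave the precision of genes at low levels unknown.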

Other observations

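Of the 410 repressed genes 296 (72.2%) were in none of the 57 gene lists, against 242 of the 464 induced genes (52.2%) and 9188 of all 11260 genes tested (81.6%). Families defined by symbol gave another view, with 27 families counted. Rab GTPases, which label membrane compartments, and the TBC1D proteins that switch them off gave 7 decreases and 2 increases among 72 tested (9.72% lower, against 3.64% of all genes, with a median of 0.05). Without Control replicate 2 there were 4 decreases and 1 increase. Rab7b, a Rab of late endosomes that curbs Toll-like receptor signalling, was listed at 22.1, 19.4 and 18.3 TPM in Control and 8.21, 11.2 and 8.82 TPM in LPS. Rab3il1, an exchange factor for Rab proteins, fell by 0.90 ± 0.10, Tbc1d16 by 0.86 ± 0.13 and Rab40c by 0.68 ± 0.10, and all of these decreases held in all 21 alternatives. Glycosyltransferases that add sialic acid or galactose gave 3 decreases (12%, against 3.64% of all genes) and 1 increase (4%, against 4.12%) among 25. There were 3 increases without LPS replicate 3. Besides St6gal1, St3gal3 fell from 16.1, 16.5 and 17.9 TPM to 10.7, 10.6 and 10.7 TPM, while St3gal6 rose from 1.95, 3.49 and 2.68 TPM to 17.1, 13.2 and 10.5 TPM. Solute carriers rose more often than they fell, 14 against 7 of 174 (8.05% and 4.02%, against 4.12% and 3.64% of all genes). The decreases were 3 without Control replicate 3, and the increases 9 without that library and 22 without LPS replicate 3. Of 194 zinc-finger genes 2 fell (1.03%, against 3.64% of all genes) and 2 rose (1.03%, against 4.12%). Without Control replicate 2 there was 1 increase among them. Of 25 kinesins none was called by limma, with 3 higher and 2 lower at an unadjusted p under 0.05.

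Single genes outside all lists, chosen after their values were seen, also fell by clear amounts. Fbxw4, an F-box protein, was listed at 308, 371 and 355 TPM in Control and 159, 158 and 201 TPM in LPS. Gmpr, which converts guanosine to inosine nucleotides, fell from 105, 113 and 113 TPM to 56.1, 52.7 and 58.3 TPM, by 0.98 ± 0.08. Erp29, a chaperone of the endoplasmic reticulum, fell from 291, 288 and 291 TPM to 184, 172 and 165 TPM. No LPS library of these 3 genes reached a Control library. On the induced side Aqp9, a channel for water and glycerol, rose from 1.26, 0.61 and 0.34 TPM to 8.31, 6.87 and 5.09 TPM, Aoah, the enzyme that deacylates and inactivates LPS, from 1.51, 1.17 and 1.11 TPM to 8.33, 8.29 and 5.38 TPM, and Clu, a secreted chaperone, from 4.49, 5.49 and 5.45 TPM to 16, 15.8 and 12.8 TPM. A further 64 genes outside the filter were listed at 0 in all Control libraries and above 0 in all LPS libraries. The reverse pattern was not counted, so the number gives no direction for genes below the filter.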
